A study of Mus musculus with 6 samples.

Results

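The voltage-gated and related cation channel genes described here are 97 of the 19938 genes that had a cluster of their own on the array. They were chosen by symbol alone: pore-forming and beta subunits of sodium channels (Scn), alpha1, alpha2delta and beta subunits of calcium channels (Cacna1, Cacna2d, Cacnb) and the numbered potassium channel families (Kcna to Kcnv), with Kcnj8 and Kcnj10 left out. A cluster is the group of probes that covers a transcript or part of it, and each gene was read by its cluster with the highest mean over the 6 arrays. Of the 97 genes, 11 encode sodium, 17 calcium and 69 potassium channel subunits.

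The arrays carried RNA from retinae of newborn mice (postnatal day 0) of the C57BL/6NTac background. Of these, 3 arrays are labelled knockout for Meg2, the protein tyrosine phosphatase encoded by Ptpn9, and 3 wild type. Per the labels, both retinae of an animal were pooled. The promoter or allele design of the knockout and the deleted part of the gene are not stated in the labels. Whole retina holds all its cell types together, so fewer cells of a type and less RNA per cell cannot be told apart.

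Voltage-gated channels open when the membrane depolarises. Sodium channels carry the upstroke of the action potential, calcium channels couple depolarisation to transmitter release and gene regulation, and potassium channels repolarise the cell or hold its resting potential. In the mature retina ganglion cells and some amacrine cells fire sodium spikes, while photoreceptors and bipolar cells release transmitter through L-type calcium channels at ribbon synapses. Newborn mouse retina holds differentiating ganglion, amacrine and horizontal cells, early photoreceptors and many dividing progenitors, and most rods and all bipolar cells are still to mature.

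Ptpn9 itself was lower on every knockout array, at 9.31, 9.58 and 9.28 on the log2 scale against 10.05, 9.93 and 9.94 in wild type (difference -0.58, SE 0.087, adjusted p = 0.437, limma). The knockout signal was 0.67 of the wild-type signal, above the array background used below, and the gene did not pass correction. Whether the probes lie in the deleted part is not known, so this checks the labels only in part. Array medians over the 23410 tested clusters lay between 8.49 and 8.54. The replicate 2 arrays of both genotypes stood apart in carrying Xist (log2 12.54, knockout, and 12.54, wild type) together with the Y-linked gene Eif2s3y (7.66 and 7.76). In that order, Eif2s3y read 5.08 and 5.49 on the replicate 1 arrays, which carried Xist at 12.58 and 12.73, and 10.03 and 9.39 on the replicate 3 arrays, where Xist was 6.26 and 6.52. A single animal would not ordinarily carry both, so the number of animals behind each of these arrays cannot be told. The main counts are also given without both replicate 2 arrays.

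The first question was which channel genes gave signal in newborn wild-type retina. No detection call is part of the deposited table, so clusters of 1023 olfactory receptor genes, which are not known to serve the retina, were used as a reference. The 95th percentile of their wild-type log2 signal was 7.19, and 77 of the 97 channel genes (79.4%) lay above it, against 69.5% of all tested clusters. The tested clusters include the olfactory receptor clusters themselves and every cluster of a gene, while each channel gene counts by its brightest. Only 33 channel genes (34%) lay above the median of all tested clusters, 8.51, which 50% of clusters exceed by definition. With the 99th percentile of the olfactory receptor clusters as the reference, 7.93, 51 genes (52.6%) lay above it, against 57.8% of all tested clusters. The share of channel genes was thus above that of all clusters at the 95th percentile and below it at the 99th. A cluster's signal depends on its probes as well as on transcript amount, so these log2 signals place each gene against the array's background and do not rank the genes by transcript number.

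**Figure D1:**
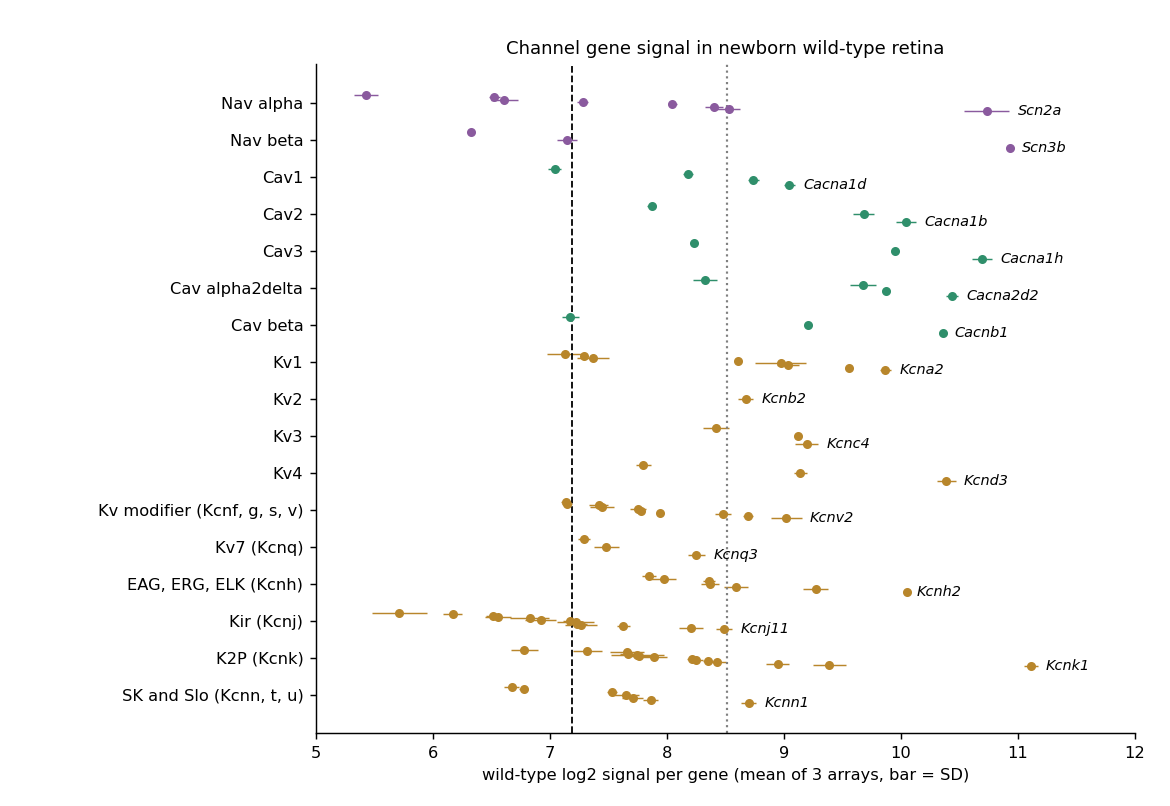
Wild-type log2 signal of each channel gene (points, mean of 3 arrays with SD) by family, with the gene of highest signal named in each. The dashed line marks the 95th percentile of olfactory receptor clusters (7.19) and the dotted line the median of all tested clusters (8.51). All calcium channel families reach past the dotted line, and no inward rectifier (Kir) does.

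Sodium channel genes were split between clear signal and background. Of the pore-forming alpha subunits, 5 of 8 lay above the olfactory receptor reference. Scn2a, the alpha subunit of unmyelinated and developing axons, read 10.55, 10.72 and 10.94 on the wild-type arrays (log2 10.73 ± 0.20, SD, n = 3). Scn3a, a subunit typical of embryonic brain, read 8.05 ± 0.036, Scn8a, the subunit of mature axon initial segments, 8.40 ± 0.077, and Scn9a, known from sensory neurons, 8.53 ± 0.095. Scn1a, which serves inhibitory neurons and nodes of mature axons, stood just over the reference at 7.28 ± 0.045. Below it lay the nociceptor genes Scn10a (6.52 ± 0.047) and Scn11a (6.61 ± 0.12) and Scn7a, a sodium-sensing relative that is not voltage gated (5.43 ± 0.10). Among the beta subunits, which are adhesion-like partners of the pore, Scn3b gave the clear signal at 10.93 ± 0.035, while Scn2b (7.15 ± 0.085) and Scn4b (6.32 ± 0.013) lay under the reference. The Scn3b arrays read 10.93, 10.96 and 10.89 and did not come near those limits.

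Calcium channel genes gave signal most widely, with 15 of 17 above the reference and 11 above the median of all clusters. In the L-type (Cav1) family Cacna1d read 9.05 ± 0.049 and Cacna1c, the broadly used neuronal and cardiac subunit, 8.18 ± 0.045. Cacna1f, the L-type subunit of photoreceptor ribbon synapses and a gene of congenital stationary night blindness, read 8.74 ± 0.049 on the wild-type arrays. The skeletal muscle subunit Cacna1s read 7.04 ± 0.053, below the reference. In the presynaptic (Cav2) family the P/Q-type subunit Cacna1a read 9.68 ± 0.09 and the N-type subunit Cacna1b 10.04 ± 0.087, against 7.87 ± 0.038 for the R-type subunit Cacna1e. The low-voltage-activated T-type subunits all lay above the reference, with Cacna1h at 10.69 ± 0.085, Cacna1g at 9.95 ± 0.036 and Cacna1i at 8.23 ± 0.01.

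The auxiliary calcium channel subunits set surface density and gating of the pore. All 4 alpha2delta genes lay above the reference, with Cacna2d2 at 10.44 ± 0.05, Cacna2d4, the partner of Cacna1f in photoreceptors, at 9.88 ± 0.034, Cacna2d1 at 9.68 ± 0.11 and Cacna2d3 at 8.32 ± 0.10. Of the cytoplasmic beta subunits, Cacnb1 read 10.36 ± 0.028 and Cacnb4 9.21 ± 0.032. Cacnb2, the beta subunit used at the mature photoreceptor synapse, read 7.18 ± 0.073, within its SD of the reference.

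Every voltage-gated potassium channel family had members above the reference. The delayed rectifier and low-threshold Kv1 genes Kcna2 (9.87 ± 0.051), Kcna3 (9.55 ± 0.028), Kcna6 (9.04 ± 0.092) and Kcna1 (8.60 ± 0.022) lay above the median of all clusters, and Kcna4, Kcna7 and Kcna10 lay between 7.13 and 7.37. Kcnb2 of the Kv2 delayed rectifiers read 8.67 ± 0.066. The fast-spiking Kv3 genes read 9.19 ± 0.098 for Kcnc4, 9.12 ± 0.034 for Kcnc2 and 8.42 ± 0.11 for Kcnc1. In the A-type Kv4 family Kcnd3 read 10.39 ± 0.082, Kcnd2 9.14 ± 0.053 and Kcnd1 7.80 ± 0.064.

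Modifier subunits form no channel alone and join Kv2 pores. Kcnv2, which builds the photoreceptor inner segment current and is the gene of a cone dystrophy with supernormal rod response, read 9.02 ± 0.13, and 8 of the 10 modifier genes lay above the reference. Kcng1 read 8.69 ± 0.041, Kcng2 8.48 ± 0.067 and Kcns2 7.94 ± 0.011. All 7 genes of the EAG, ERG and ELK group (Kcnh) lay above it, led by the ERG subunit Kcnh2 at 10.05 ± 0.018. Its wild-type arrays read 10.04, 10.04 and 10.07 and its knockout arrays 10.07, 10.05 and 10.06, the narrowest spread of the genes named here. Among the M-current (Kv7) genes Kcnq3 read 8.25 ± 0.076, Kcnq1 7.48 ± 0.11 and Kcnq5 7.29 ± 0.054.

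Inward rectifiers and leak channels are not opened by voltage in the same way and set the resting potential. Of the 13 inward rectifier genes (Kir), 6 lay above the reference and 0 above the median of all clusters. Kcnj11, the pore of ATP-sensitive channels, read 8.49 ± 0.068 and the G-protein-gated subunit Kcnj3 8.21 ± 0.10. Kcnj2, the classical strong rectifier, read 5.71 ± 0.23 and the renal subunit Kcnj1 6.51 ± 0.06, both below the reference. Tandem-pore leak channels (K2P) lay above it in 13 of 14 genes. The weakly conducting Kcnk1 read 11.11 ± 0.058, the acid-sensitive Kcnk3 9.39 ± 0.14, the mechanosensitive relatives Kcnk10 8.95 ± 0.098 and Kcnk2 8.35 ± 0.044, and Kcnk13, a microglial leak channel, 7.32 ± 0.13. In the SK and Slo group (Kcnn, Kcnt and Kcnu) Kcnn1 read 8.70 ± 0.063, Kcnn2 7.86 ± 0.064 and Kcnu1, the sperm channel, 6.78 ± 0.04.

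The second question was whether channel genes differed between knockout and wild-type retina. No channel gene passed correction. The lowest adjusted p among them was 0.9995 (limma, Benjamini-Hochberg over all tested clusters), or 0.514 with the replicate number as a block. Of all tested clusters 0% passed, or 0.00427% (1 cluster) with the block. At an unadjusted p under 0.05, limma put 3 of 97 genes lower in the knockout (3.09%), namely Cacna1f, Kcnc4 and Kcnj12, against a background of 1.74% of all tested clusters. It put 0 higher, against a background of 1.69%. In either direction the share was 3.09% of channel genes and 3.43% of all clusters, so the count was near the background. With the replicate block 4 genes were higher and 5 lower at that level, against backgrounds of 4.46% and 4.36%, which in either direction was 9.28% of channel genes against 8.81%. Without both replicate 2 arrays 0 were higher and 0 lower, with backgrounds of 1.55% and 1.47%. Without only the knockout or only the wild-type replicate 2 array, 1 gene, Cacna1f, was lower at that level, against backgrounds of 2.46% and 1.48%. Without knockout replicate 2 or 3, 3 genes were higher, Kcnj13 among them in each case, against backgrounds of 2.76% and 1.54%.

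The differences were small in every family. Over the 97 genes the median difference, knockout minus wild type, was -0.002 on the log2 scale, against 0.0012 over all tested clusters, with 47 genes above 0 and 50 below. Median differences were 0.046 for sodium, -0.023 for calcium and -0.00014 for potassium channel genes. The 95% interval of the difference (limma, not adjusted) lay within ±0.5 for 96 of 97 genes and within ±0.3 for 83, and Kcnj13 was the gene whose interval passed the wider bound. In 2 genes the difference was over 0.2 in size.

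**Figure D2:**
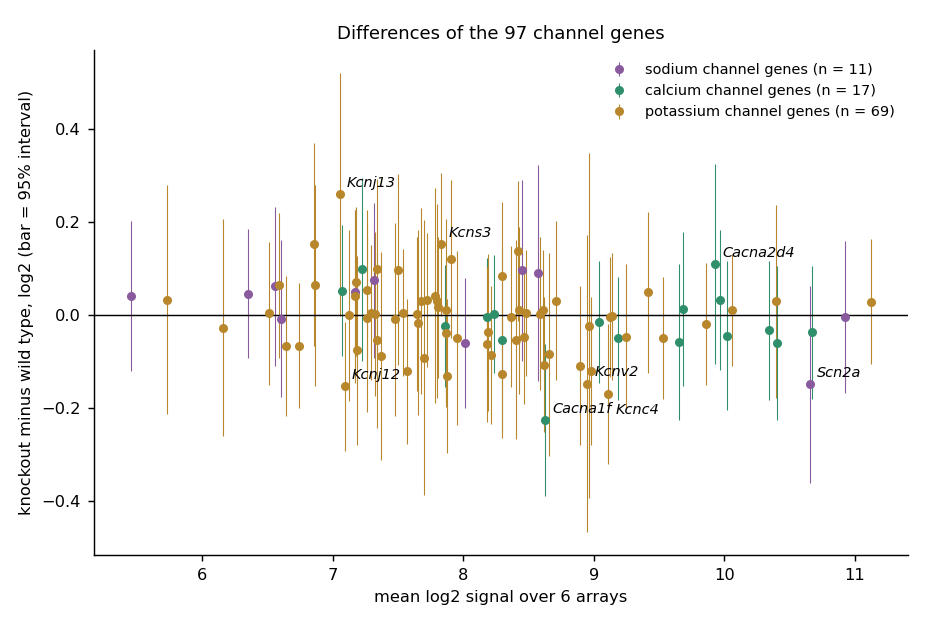
Difference between knockout and wild type (log2, with its 95% interval) against mean log2 signal for the 97 channel genes, coloured by ion. Points lie around 0 at all signal levels, between -0.23 (Cacna1f) and 0.26 (Kcnj13).

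The sequences upstream of the channel genes, whatever their difference, were compared with those of all genes. RefSeq promoter windows (GRCm38.p6) were matched for 72 of the 97 genes, and the 250 bases before each transcript start were searched on both strands. They are shown for Cacna1f (chrX:7606853-7607102, plus strand), Kcnc4 (chr3:107458899-107459148, minus strand), Kcnj12 (chr11:61065554-61065803, plus strand) and Kcnj13 (chr1:87394730-87394979, minus strand). These genes were picked for their differences between the genotypes. Cacna1f is X-linked. Capitals mark the matches to the motifs named after the sequences.
Cacna1f: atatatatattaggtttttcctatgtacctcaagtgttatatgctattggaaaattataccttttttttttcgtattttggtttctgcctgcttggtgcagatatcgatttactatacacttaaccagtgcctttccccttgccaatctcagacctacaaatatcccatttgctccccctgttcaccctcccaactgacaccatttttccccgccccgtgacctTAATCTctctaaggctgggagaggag
Kcnc4: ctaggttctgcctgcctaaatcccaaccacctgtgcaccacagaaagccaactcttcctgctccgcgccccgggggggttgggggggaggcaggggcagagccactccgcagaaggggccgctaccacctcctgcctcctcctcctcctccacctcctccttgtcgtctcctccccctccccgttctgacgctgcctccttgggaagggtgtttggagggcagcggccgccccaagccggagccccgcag
Kcnj12: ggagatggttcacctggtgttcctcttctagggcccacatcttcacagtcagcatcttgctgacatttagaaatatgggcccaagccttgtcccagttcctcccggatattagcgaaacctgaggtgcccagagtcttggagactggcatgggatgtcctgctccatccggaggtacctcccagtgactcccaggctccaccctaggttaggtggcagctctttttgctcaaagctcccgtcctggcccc
Kcnj13: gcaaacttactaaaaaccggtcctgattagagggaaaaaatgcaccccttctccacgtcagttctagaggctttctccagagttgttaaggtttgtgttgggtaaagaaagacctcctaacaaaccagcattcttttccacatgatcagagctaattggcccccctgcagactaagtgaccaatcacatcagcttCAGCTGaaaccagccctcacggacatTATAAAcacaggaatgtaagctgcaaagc

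The motifs were the E-box CAGCTG, the TATA box TATAAA, the homeobox sites TAATCC and TAATCT of the kind bound by CRX and OTX2, which share their opening letters, and the core of RE1, the element through which REST silences neuronal genes outside neurons. They were chosen with the windows in view. Cacna1f held TAATCT, starting 26 bases before the start. Kcnj13 held CAGCTG and TATAAA, starting 55 and 29 bases before it, and the windows of Kcnc4 and Kcnj12 held none of these letters. CAGCTG was present in 27 of 95 channel gene windows (28.4%) and in 13% of all 32851 windows. TATAAA was present in 5.26% and 12.4%, TAATCC in 3.16% and 6.25%, and TAATCT in 10.5% and 7.31%. The RE1 core, searched as a string of 15 letters, was in 0 channel gene windows and in 0.0335% of all (11 windows). A string this rare cannot set 95 windows apart from the rest, so nothing is drawn from the 0. The channel gene windows were also richer in G and C, with a median of 58.8% against 52.4%. A match is a description of letters and not a bound site.

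Cacna1f was the gene with the lowest difference. The wild-type arrays read 8.71, 8.71 and 8.80 and the knockout arrays 8.45, 8.45 and 8.65. Every knockout array lay below every wild-type array, and the knockout replicate 3 array was the nearest to the wild-type range. The difference was -0.23 (SE 0.072), with a 95% interval from -0.39 to -0.062, an unadjusted p of 0.0123 and, with the replicate block, of 0.00297 (limma). Leaving out single arrays gave differences from -0.29 to -0.19, all at an unadjusted p under 0.05, and leaving out both replicate 2 arrays gave -0.21 (unadjusted p = 0.0611, limma).

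Other channel genes of photoreceptors showed overlapping groups. Cacna2d4 read 9.89, 9.84 and 9.90 in wild type and 10.02, 9.77 and 10.17 in the knockout, and the knockout arrays lay on both sides of the wild-type range. The difference was 0.11 (SE 0.095), or 0.20 without both replicate 2 arrays. Kcnv2 read 9.14, 8.88 and 9.05 in wild type and 9.08, 8.52 and 9.03 in the knockout, with the replicate 2 array lowest in each genotype (difference -0.15, SE 0.14, or -0.04 without them). The mean log2 signal of 12 photoreceptor genes, a list holding Crx, Otx2 and Nrl, was 10.26, 10.21 and 10.37 in wild type and 10.25, 10.14 and 10.46 in the knockout. These groups overlapped, 8 of the 12 genes lay above 0, and none was at or under the olfactory receptor reference. Within the list, recoverin (Rcvrn) and arrestin (Sag), singled out because of their values, were lower in the knockout of all 3 pairs, by -0.23 (unadjusted p = 0.0656, or 0.00921 with the block, limma) and -0.19 (0.163, or 0.0118), with overlapping groups. In the other direction Thrb, Crx and Prdm1 were higher in the knockout of all 3 pairs, also with overlapping groups. Thrb differed by 0.17 (unadjusted p = 0.0932, or 0.0199 with the block, limma), Crx by 0.12 (0.198, or 0.0706) and Prdm1 by 0.052 (0.59, or 0.321). The part of photoreceptor RNA in the Cacna1f difference was not tested.

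Kcnc4, a rapidly inactivating Kv3 subunit, read 9.08, 9.24 and 9.26 in wild type and 9.06, 9.03 and 8.98 in the knockout. The groups did not overlap, but the gap between the highest knockout and the lowest wild-type array was narrow, since wild-type replicate 1 stood below its group. The difference was -0.17 (SE 0.067) at an unadjusted p of 0.0322 (limma), and it kept an unadjusted p under 0.05 in 2 of the 6 fits that left out an array. The other Kv3 genes differed by 0.011 (SE 0.079) for Kcnc1 and -0.0046 (SE 0.057) for Kcnc2.

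Kcnj12, a strong inward rectifier of muscle and brain, read 7.23, 7.17 and 7.11 in wild type and 7.04, 6.95 and 7.05 in the knockout, again without overlap. The difference was -0.15 (SE 0.061) at an unadjusted p of 0.0347 (limma), with an unadjusted p under 0.05 in 3 of the 6 fits that left out an array. Its wild-type mean of 7.17 ± 0.06 lay at the olfactory receptor reference of 7.19, so this signal was near background. A list of 18 skeletal and cardiac muscle genes, of which 4 were at or under the reference, averaged 7.61 to 7.67 on the wild-type and 7.59 to 7.72 on the knockout arrays.

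Kcnj13 showed the largest difference of either sign, at a signal near background, with a wild-type mean of 6.92 ± 0.13 against the reference of 7.19. This inward rectifier belongs to the apical membrane of the retinal pigment epithelium, the layer behind the retina. The wild-type arrays read 6.85, 6.84 and 7.08 and the knockout arrays 7.44, 7.09 and 7.02. The groups overlapped, and the knockout replicate 1 array stood above all others. The difference was 0.26 (SE 0.12) at an unadjusted p of 0.0515, or 0.0556 with the block (limma), and 0.13 without knockout replicate 1. A list of 14 pigment epithelium and melanocyte genes averaged 7.31, 7.26 and 7.24 in wild type and 7.48, 7.30 and 7.24 in the knockout, with knockout replicate 1 again highest. Of these genes 10 lay above 0 and 5 were at or under the reference. At an unadjusted p under 0.05 (limma) 2 were higher without overlap, the pigment enzyme gene Tyr (difference 0.19, itself under the reference) and the homeobox gene Otx1 (0.17). Rpe65, the visual cycle enzyme of this layer, lay under the reference on all arrays (difference 0.049). Ttr, singled out because of its values, differed by 0.28 (unadjusted p = 0.0816, or 0.00443 with the block, limma). The genes below 0 were Mitf (-0.083), Best1 (-0.041), Slc45a2 (-0.013) and Mlana (-0.0049). The part of adhering pigment epithelium in the Kcnj13 difference was not tested.

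**Figure D3:**
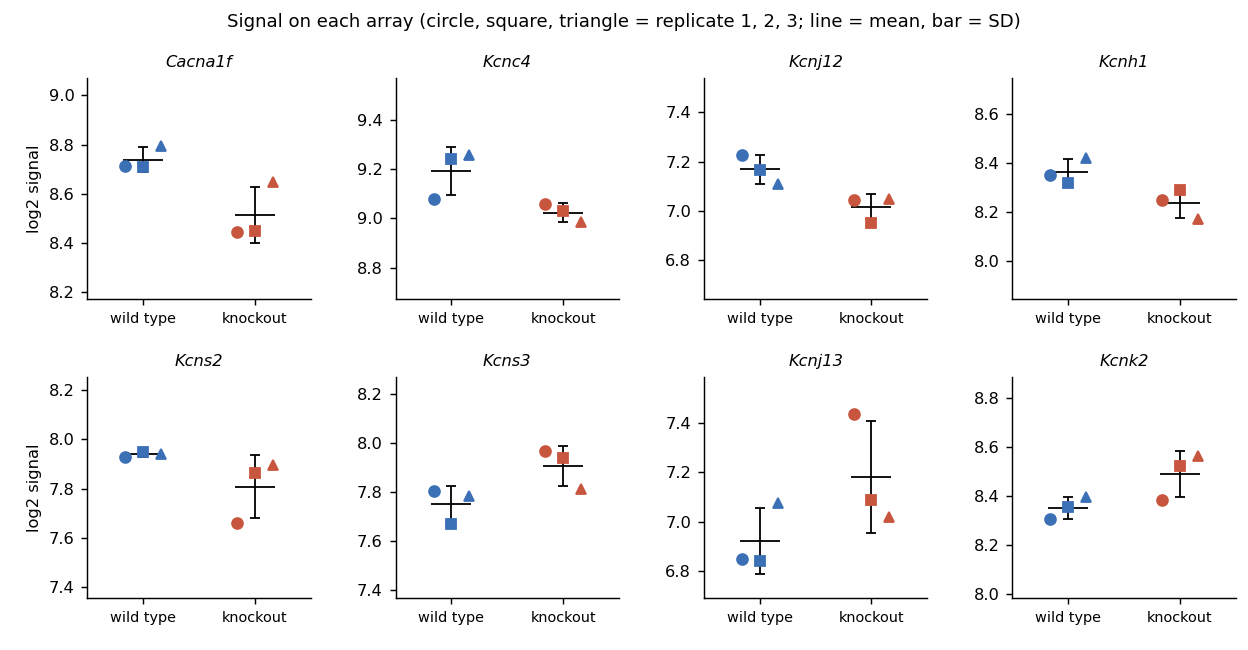
Log2 signal on each array for 8 channel genes, with group mean and SD. Groups do not overlap for Cacna1f, Kcnc4, Kcnj12, Kcnh1 and Kcns2 (knockout lower) or for Kcns3 (knockout higher), and they overlap for Kcnj13 and Kcnk2.

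Arrays of the genotypes did not overlap in 6 channel genes (6.19%), against 8.43% of all tested clusters. Besides the 3 genes above these were Kcnh1, Kcns2 and Kcns3, which are singled out because of their values. Kcnh1, the founding EAG subunit, read 8.35, 8.32 and 8.42 in wild type and 8.25, 8.29 and 8.17 in the knockout (difference -0.13, SE 0.061). Kcns2, a silent modifier of Kv2 channels, read 7.93, 7.95 and 7.94 in wild type and 7.66, 7.87 and 7.90 in the knockout (difference -0.13, SE 0.073). Its wild-type arrays were close together and its knockout arrays spread out below them, and without knockout replicate 1 the difference was -0.058. Kcns3, another such modifier, was the gene with all knockout arrays above all wild-type arrays, at 7.97, 7.94 and 7.81 against 7.80, 7.67 and 7.78 (difference 0.15, SE 0.067, unadjusted p = 0.0514, or 0.0369 with the block, limma). Without both replicate 2 arrays Kcns3 differed by 0.096. Lower signal in 5 and higher signal in 1 gene compare with backgrounds of 4.35% and 4.08% of clusters.

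In the blocked fit Kcnk2, the mechanosensitive leak channel gene, was higher in 3 of 3 same-numbered pairs, with 8.38, 8.52 and 8.56 in the knockout and 8.31, 8.36 and 8.39 in wild type. The groups overlapped slightly, and the difference was 0.14 (SE 0.067) at an unadjusted p of 0.0691, or 0.0249 with the block (limma). Kcnh3, Kcnk18 and Kcns3 were the other genes higher at an unadjusted p under 0.05 with the block, by 0.12, 0.15 and 0.15. Kcnk18 read 6.78 ± 0.11 in wild type, under the reference. Without knockout replicate 1 Kcnh3 and Kcnk18 differed by 0.05 and 0.057. Kcna6 and Kcnj9 joined Cacna1f, Kcnc4 and Kcnj12 on the lower side, by -0.12 and -0.12. Counted by sign alone, 18 channel genes (18.6%) were lower and 9 (9.28%) higher in the knockout of every pair, against 15.9% and 16.5% of all clusters.

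Read by the brightest cluster of each, no sodium channel gene had an unadjusted p under 0.05 by limma, nor did any in the blocked fit. The brightest Scn2a cluster read 10.55, 10.72 and 10.94 in wild type and 10.62, 10.56 and 10.57 in the knockout. Wild-type replicate 3 was the highest array and wild-type replicate 1 the lowest, so the knockout arrays lay inside the wild-type range. The difference was -0.15 (SE 0.093), with a 95% interval from -0.36 to 0.063, and -0.047 without wild-type replicate 3. Without wild-type replicate 1 it was -0.24, past an unadjusted p of 0.05. Scn3b differed by -0.0036 (SE 0.072), Scn3a by -0.06 (SE 0.061), Scn8a by 0.096 (SE 0.086), Scn9a by 0.09 (SE 0.10) and Scn1a by 0.075 (SE 0.074). A second, dimmer cluster of Scn9a was higher in the knockout of all 3 pairs, with overlapping groups. It differed by 0.14 (SE 0.10, unadjusted p = 0.211, or 0.022 with the block, limma).

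Scn2a was covered by 14 single-gene clusters, which gives a repeated reading of 1 transcript from different probes on the same arrays. Their mean log2 signals ran from 6.44 to 10.66. In 12 of them the knockout mean was below the wild-type mean and in 2 above, with a median difference of -0.084 and a range from -0.26 to 0.045. The cluster ninth in signal, singled out because of its values, read 8.16, 8.11 and 8.12 in wild type and 7.92, 7.87 and 7.81 in the knockout. It was the cluster of the 14 whose groups did not overlap, with a difference of -0.26 (SE 0.058, unadjusted p = 0.00154, adjusted p = 0.9995, limma). With the replicate block 2 of the 14 had an unadjusted p under 0.05 (limma), this cluster and the dimmest (-0.14). The clusters share arrays and RNA, so they are no independent replicates.

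**Figure D4:**
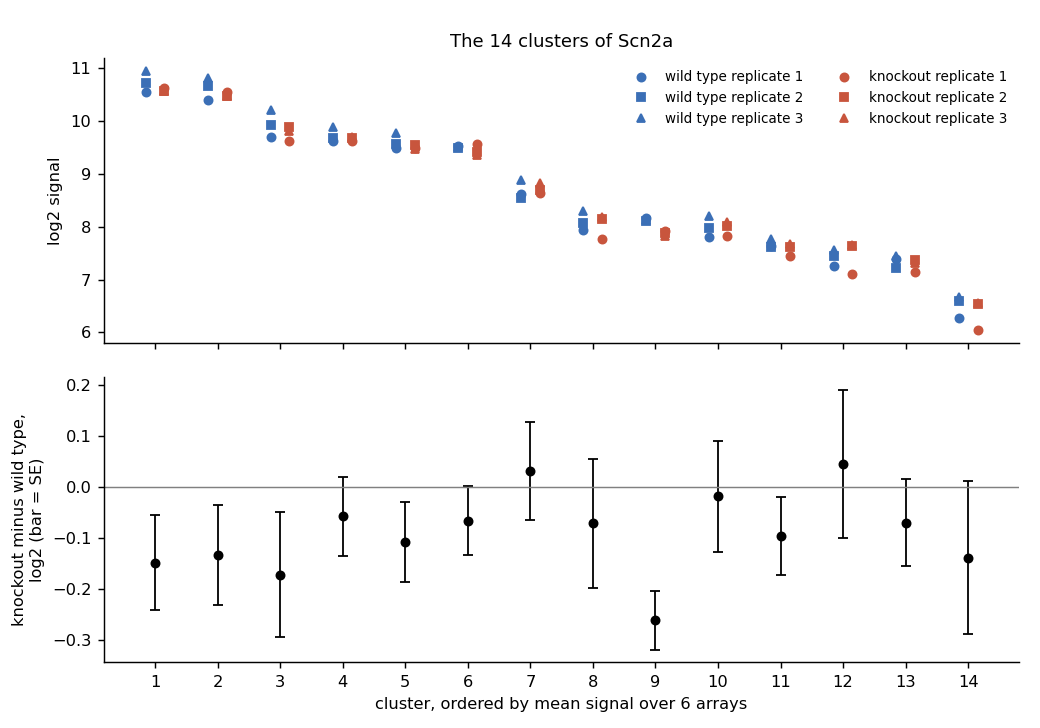
Log2 signal of the 14 Scn2a clusters on each array (top) and their difference between knockout and wild type with SE (bottom), ordered by mean signal. 12 of the differences lie below 0, and the ninth cluster (-0.26) is the one whose groups separate.

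The other calcium channel genes stayed close to 0. Cacna1a differed by -0.058 (SE 0.074), Cacna1b by -0.044 (SE 0.071), Cacna1c by -0.004 (SE 0.056), Cacna1d by -0.016 (SE 0.058), Cacna1g by 0.033 (SE 0.066) and Cacna1h by -0.037 (SE 0.063). The 95% interval for Cacna1c ran from -0.13 to 0.12 and that for Cacna1h from -0.18 to 0.11. Among auxiliary subunits Cacna2d1 differed by 0.012 (SE 0.073), Cacna2d2 by -0.06 (SE 0.073), Cacnb1 by -0.032 (SE 0.066) and Cacnb2 by 0.098 (SE 0.087). Cacna1b was lower in the knockout of each pair, at 9.92, 9.99 and 10.09 against 9.95, 10.06 and 10.12, although the groups overlapped widely.

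Potassium channel genes of clear signal were likewise near 0. Kcnk1 differed by 0.029 (SE 0.059), Kcnd3 by 0.03 (SE 0.091), Kcnh2 by 0.011 (SE 0.053), Kcna2 by -0.019 (SE 0.058), Kcna3 by -0.05 (SE 0.058) and Kcnd2 by -0.002 (SE 0.06). Kcnb2, the Kv2 partner of the modifier subunits, read 8.62, 8.65 and 8.75 in wild type and 8.50, 8.57 and 8.63 in the knockout (difference -0.11, SE 0.064). Its arrays were lower in the knockout of every pair and overlapped by a narrow margin. Kcnq3 differed by -0.085 (SE 0.065), Kcnn1 by -0.085 (SE 0.096), Kcnn2 by 0.011 (SE 0.086), Kcna1 by 0.012 (SE 0.056), Kcnj11 by -0.048 (SE 0.063) and Kcnk13 by 0.0021 (SE 0.077).

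Variation between replicate numbers was larger than variation between genotypes in 86 of the 97 channel genes, a count not made over all tested clusters. The number accounted for a median of 58.5% of a gene's sum of squares over the 6 arrays and the genotype for 9.03%, although 3 numbers leave 2 degrees of freedom and the genotypes 1. Kcna5, a delayed rectifier of muscle, vessels and immune cells, had the widest spread (SD 0.25). It read 9.08, 8.72 and 9.12 in wild type and 9.05, 8.58 and 9.22 in the knockout, with both replicate 2 arrays lowest. The same held for Kcnv2 and for Kcnk5, an acid-sensitive leak channel gene, at 7.76, 7.51 and 7.96 in wild type and 7.76, 7.42 and 7.78 in the knockout. In 17 channel genes (17.5%) both replicate 2 arrays were below the other 4, and in 7 (7.22%) above, against 13.3% and 11.6% of all clusters. The mean of the photoreceptor list was also lowest on the replicate 2 array of each genotype. Signal of the sex-linked genes Xist and Eif2s3y, given above, followed the replicate number in both genotypes. The part of sex in this variation was not tested.

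**Figure D5:**
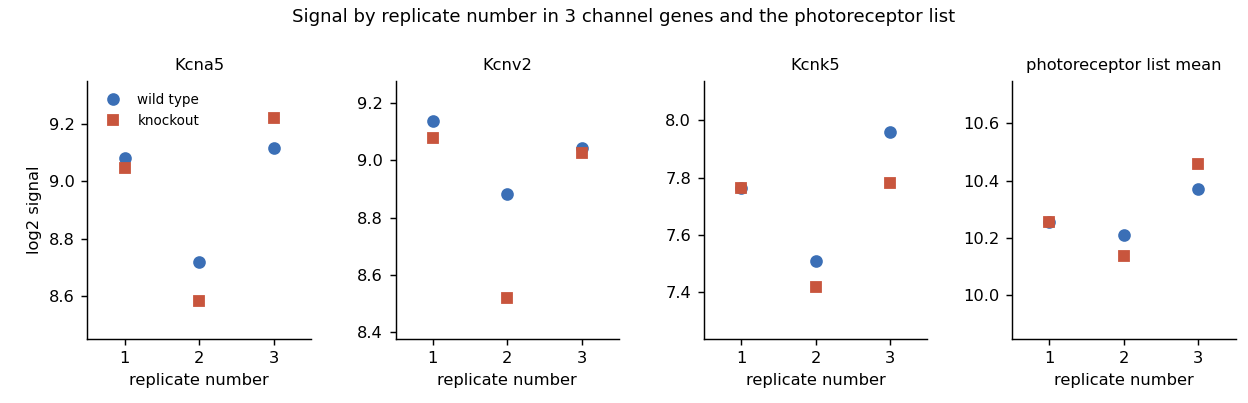
Log2 signal by replicate number for Kcna5, Kcnv2 and Kcnk5 and the mean of the photoreceptor list (points, 1 array each). Both replicate 2 arrays lie lowest in each panel, by -0.47 for Kcna5, -0.37 for Kcnv2 and -0.35 for Kcnk5 relative to the mean of the other 4 arrays.

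Neurons that carry these channels were read by their own markers. A list of 14 ganglion cell genes averaged 10.55 to 10.65 on the wild-type and 10.51 to 10.70 on the knockout arrays, with 6 genes above 0, 8 below and none at or under the olfactory receptor reference. The 15 amacrine and horizontal cell genes averaged 10.003 to 10.04 and 9.99 to 10.09. No gene of either list had an unadjusted p under 0.05 (limma), a level that 1.69% of all clusters passed as higher and 1.74% as lower. Endothelial and pericyte genes lay above 0 in 12 of 15, with 4 (Cdh5, Flt1, Emcn and Rgs5) at an unadjusted p under 0.05 (limma), and averaged 7.96 to 8.05 on the wild-type and 8.01 to 8.30 on the knockout arrays. Müller glia and astrocyte genes lay above 0 in 12 of 15, with 2 (Pdgfra and Fabp7) at that level, and averaged 10.16 to 10.20 on the wild-type and 10.21 to 10.28 on the knockout arrays, with 2 at or under the reference. Microglial genes lay above 0 in 10 of 14, with 3 at that level (C1qa, C1qb and C1qc), and averaged 7.75 to 7.84 on the wild-type and 7.77 to 7.98 on the knockout arrays. The endothelial and the microglial list each had 3 genes at or under the reference. Kcnk13 and Kcna3, channels also used by microglia, differed by 0.0021 and -0.05. The differences between these lists were not tested, nor was their part in any channel gene's difference.

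Partner genes of the channels were listed by the pore they serve. Of 21 potassium channel partners, 1 was higher and 1 lower at an unadjusted p under 0.05 (limma), and none passed correction. The backgrounds at that level were 1.69% and 1.74% of all clusters. This list also holds Kcnma1, the pore gene of BK channels, which the symbol rule left out of the 97 genes (difference 0.0028, SE 0.081). The higher one was Kcnab1, a cytoplasmic beta subunit of Kv1 channels, at 8.88, 9.18 and 9.53 in the knockout and 8.69, 9.00 and 8.82 in wild type (difference 0.36, SE 0.15). The lower one was Kcnmb1, the smooth muscle beta subunit of BK channels, at 6.29, 6.39 and 6.41 against 6.56, 6.69 and 6.56 (difference -0.24, SE 0.065). Kcnab1 groups overlapped and Kcnmb1 groups did not, and Kcnmb1 lay below the olfactory receptor reference on all arrays. None of 19 calcium channel partners, of 18 genes of sodium channel anchoring and the axon initial segment, or of 16 other cation channel genes had an unadjusted p under 0.05 (limma). Their median differences were -0.028, -0.015 and 0.013.

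Several channel genes lie on chromosome 9 with Ptpn9. In the gene order of assembly GRCm38.p6, Scn4b and Scn2b were the nearest, with 123 and 124 measured genes between them and Ptpn9. The 8 channel genes on this chromosome differed by -0.06 (Cacna2d2) to 0.064 (Kcnj5), none at an unadjusted p under 0.05 (limma). Channel genes were most frequent on chromosome 2, with 15 members, among them Scn1a, Scn2a, Scn3a, Scn7a and Scn9a.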

How the data were processed

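Expression was measured on 6 Affymetrix Mouse Gene 1.0 ST arrays, 3 per genotype. Values are used as deposited, on the log2 signal scale with 1 value per cluster and array, and were made by the authors with Affymetrix Expression Console and RMA per the submitters' processing notes, which also name Transcriptome Analysis Console. RMA gives all arrays 1 distribution, which hides any change common to most transcripts. Neither software versions nor the annotation release are stated there.

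Of 35557 clusters, 23410 had at least 1 annotated gene and were tested, 21789 with exactly 1 and 1621 with several; 12147 are unnamed here. Channel genes came from 114 single-gene clusters, and all 97 matched the GRCm38.p6 gene table. The genotypes were compared in limma 3.58.1 (lmFit, eBayes; R 4.3.3), adjusted over all tested clusters at 0.05, with no filter on signal; intervals use the moderated SE. The script was tested on simulated data. An exact permutation test of 3 against 3 cannot go below p = 0.1. The labels call the samples biological replicates, and the p-values measure the spread between these arrays, of which the replicate 2 arrays may hold RNA of more than 1 animal. Deviations from the group means correlated between same-numbered arrays at 0.476, 0.485 and 0.455, all over 0.1, so the fit with the replicate number as a block was also run; the labels do not say what the numbers mark.

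The members and lists were chosen with earlier results of these data known. Named were members at an unadjusted p under 0.05, the highest-signal member of each of 17 families, members with a fixed retinal or other-tissue role, and partner genes at an unadjusted p under 0.05; others were singled out after their values were seen. Alternatives changed the scaling, the variance model, the signal filter, the choice of cluster, the reference and the arrays included.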

Additional observations from a re-analysis of the deposited data

How the results depend on the processing

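No channel gene passed correction in any of the 17 alternative settings of the fit. The lower count of 3 at an unadjusted p under 0.05 (limma) was 5 with the replicate block and 0 without both replicate 2 arrays, an alternative added after seeing the data, and it ran from 1 to 4 over the 6 fits that left out an array. It was 1 without knockout replicate 2 or without wild-type replicate 2. The higher count of 0 was 4 with the block, 2 with cyclic loess, 1 each with array weights, a filter on signal at its 25th percentile and a variance trend, and 0 to 3 with an array left out. Knockout replicates 2 and 3 gave the 3 when absent, knockout replicate 1 and wild-type replicate 3 gave 1. Of all clusters in the same fits, 4.36% were lower and 4.46% higher with the block, and 1.47% and 1.55% without both replicate 2 arrays. With an array left out the shares ran from 1.34% to 2.85% lower and from 1.24% to 2.76% higher. The higher share was 2.20% with cyclic loess, 1.99% with array weights, 1.63% with the 25th percentile filter and 1.96% with a variance trend. Cacna1f was among the lower genes in each setting except the fit without both replicate 2 arrays. Kcnc4 and Kcnj12 were not: a variance trend and the median filter dropped Kcnj12, and single arrays dropped both. The median difference over channel genes stayed between -0.023 and 0.0099, within the spread between arrays. The block left the adjusted calls at 0. Of the channel genes, 77 (79.4%) were above the olfactory receptor reference and 51 (52.6%) above its 99th percentile, against 69.5% and 57.8% of all tested clusters. The median of all clusters was passed by 33 (34%), against 50%. The 95th percentile of vomeronasal receptor clusters was passed by 94 (96.9%), against 83.8%. With 3 arrays per group and typical SEs near 0.073, differences of that size could not be told from 0, and the causes of the count changes were not tested.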

Other observations

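Besides the clusters used above, 3 clusters were annotated to several sodium channel genes of the chromosome 2 group and were read for no gene. The cluster shared by Scn2a, Scn9a and Scn3a read 6.63, 7.08 and 7.12 in wild type and 6.55, 7.06 and 7.09 in the knockout, with both replicate 1 arrays lowest (difference -0.046, SE 0.17). That shared by Scn9a and Scn3a differed by -0.071 (SE 0.081) and that shared by Scn3a and Scn1a by 0.0098 (SE 0.063). Sodium channel paralogs are alike in sequence, so probes of other clusters of Scn1a, Scn2a, Scn3a and Scn9a may also read more than 1 of them.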
